A study of Mus musculus with 6 samples.

Results

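The genes described here are 35 target genes of the transcription factor p53, Trp53 itself included, out of 56092 gene symbols in the count table. They were matched by gene name, and all 35 have a row in the table. RAW264.7 is a mouse macrophage line, and the cells had been stably transduced with a lentiviral vector with GFP and puromycin selection that carried a control hairpin (shNC) or a hairpin against the debris receptor Trem2 (shTrem2). Cells of both groups were polarised with 20 ng/mL of IL-4 over 24 hours and then spent 24 hours with debris of TCMK-1 cells, a mouse kidney tubular epithelial line, prepared by freezing and thawing. Each group has 3 RNA-seq replicates. The sources used here do not say which Trem2 hairpin or how much debris was used for these libraries. The labels of the 6 libraries name only shNC and shTrem2, so Trem2 loss and any other difference between the cell lines cannot be told apart. Nothing in the labels says that the replicates were separate cultures, and p-values measure the spread between these samples only, which may be technical.

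p53 is a transcription factor that cells stabilise after DNA damage and other stress, and its activity is set largely at the protein level by the ubiquitin ligase Mdm2 and its partner Mdm4. It induces genes that halt the cell cycle, such as Cdkn1a (p21), genes that promote apoptosis, such as Bbc3 (Puma), genes of DNA repair and metabolism, and genes that feed back on p53, Mdm2 among them. p53 also lowers many cell-cycle genes indirectly, through p21 and the DREAM repressor complex. It binds DNA as a tetramer, at pairs of a palindromic motif of 10 bases.

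To show what such a site looks like next to these genes, the RefSeq promoter windows of mouse build GRCm38.p6, which run from 250 bases before a transcription start to 50 after it, were searched for the p53 consensus motif. The motif reads the same on both strands, so a search of 1 strand covers both. The windows of 27 of the 35 genes were matched, 36 windows in all. Zmat3, Trp53inp1, Tnfrsf10b, Pmaip1, Perp, Rrm2b, Ddb2 and Xpc had no entry. An exact 10-base motif was present in 13 of the 36 windows (36.1%) and in 2745 of all 32851 windows (8.36%). A match of 20 bases, made of 2 motifs side by side with the core of each intact (a C, 2 bases that are A or T, and a G) and at most 3 mismatches elsewhere, was present in 7 of the 36 windows (19.4%) and in 188 of all windows (0.572%). These genes were picked as p53 targets, so the shares are a description of the choice. The 20-base matches belonged to 6 genes and are printed here in capitals with 20 bases on either side, 5′ to 3′ on the strand of the gene.
Cdkn1a, chr17:29090908-29090967, plus strand: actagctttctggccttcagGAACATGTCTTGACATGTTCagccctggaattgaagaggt
Rps27l, chr9:66946276-66946335, plus strand: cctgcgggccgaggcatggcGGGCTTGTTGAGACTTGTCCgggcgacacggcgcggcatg
Bbc3, chr7:16309466-16309525, plus strand: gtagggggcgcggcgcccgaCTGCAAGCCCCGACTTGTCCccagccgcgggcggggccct
Aen, chr7:78895917-78895976, plus strand: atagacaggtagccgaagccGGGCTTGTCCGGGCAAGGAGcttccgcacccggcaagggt
Trp53, chr11:69580264-69580323, plus strand: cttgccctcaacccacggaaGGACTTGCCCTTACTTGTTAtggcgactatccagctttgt
Tigar, chr6:127109726-127109785, minus strand: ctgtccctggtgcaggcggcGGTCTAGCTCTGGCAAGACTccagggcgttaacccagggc
The capitals have 1 mismatch to the consensus in Cdkn1a and Rps27l and 3 in the other genes. They begin 51 bases before a start of Cdkn1a, 117 before one of Rps27l, 97 before one of Bbc3 and 121 before one of Aen. A match is not evidence of binding, and p53 sites outside these windows were not searched.

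Estimated counts per library totalled between 16054486 and 18290532 in shNC and between 19545744 and 19835186 in shTrem2. Levels are given as CPM, counts scaled to the library total after adjustment by the TMM method, and 3 counts, the limit that a count of 0 allows, are between 0.154 and 0.186 CPM. That floor covers counting error only. Trem2 was at 114, 122 and 144 CPM in shNC and at 64.7, 63.1 and 80.1 CPM in shTrem2, a log2 fold change of -0.87 (SE 0.094, edgeR adjusted p = 3.39e-06). With the FPKM values the log2 fold change of Trem2 was -2.06, and with the counts of its most abundant transcript alone it was -2.15. Of 8 macrophage markers, none was at 0 in any library, and their summed level was between 5120 and 6047 CPM in shNC and between 10160 and 11310 CPM in shTrem2. Lyz2 alone was at 2520, 2685 and 3201 CPM in shNC and at 7345, 6820 and 7906 CPM in shTrem2. The markers did not all go the same way. Lyz2 had a log2 fold change of 1.39 and Csf1r one of 0.76, while Itgam was lower (-0.78) and so was Adgre1 (-0.56). Of 14 tubular epithelial markers, between 10 and 12 were at 0 in each library, Epcam, Cdh1, Krt8 and Krt18 in all. Their summed counts were between 12 and 19 in shNC and between 41 and 54 in shTrem2, most of them Aqp1 in shTrem2. What part these marker differences have in the results below was not tested. In bulk RNA, fewer cells that express a gene and less of its RNA per cell cannot be told apart.

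Most p53 targets were lower in shTrem2, while Trp53 mRNA itself did not pass the test. Of the 35 genes, 34 had enough counts to be tested, and 20 of them were differentially expressed (DEGs, with an adjusted p under 0.05 from edgeR over 13528 genes and a change of more than 1.5-fold). All 20 were lower in shTrem2. Among all tested genes, 21.8% were DEGs, 12.4% lower and 9.46% higher. The median log2 fold change of the 34 genes was -0.95, and that of all tested genes was 0.00. At any size of change, 31 had an adjusted p under 0.05, 30 lower and 1 higher, where the background was 57.4% in either direction, 28.6% lower and 28.8% higher. The 3 shTrem2 values did not overlap the 3 shNC values for 30 genes, 29 of them lower, where 63.8% of all tested genes did not overlap and 31.7% were lower without overlap. Gadd45g and Gdf15 had fewer than 10 counts in at least 1 library, and of the 32 genes with at least 10 counts in every library, 18 were DEGs.

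**Figure D1:**
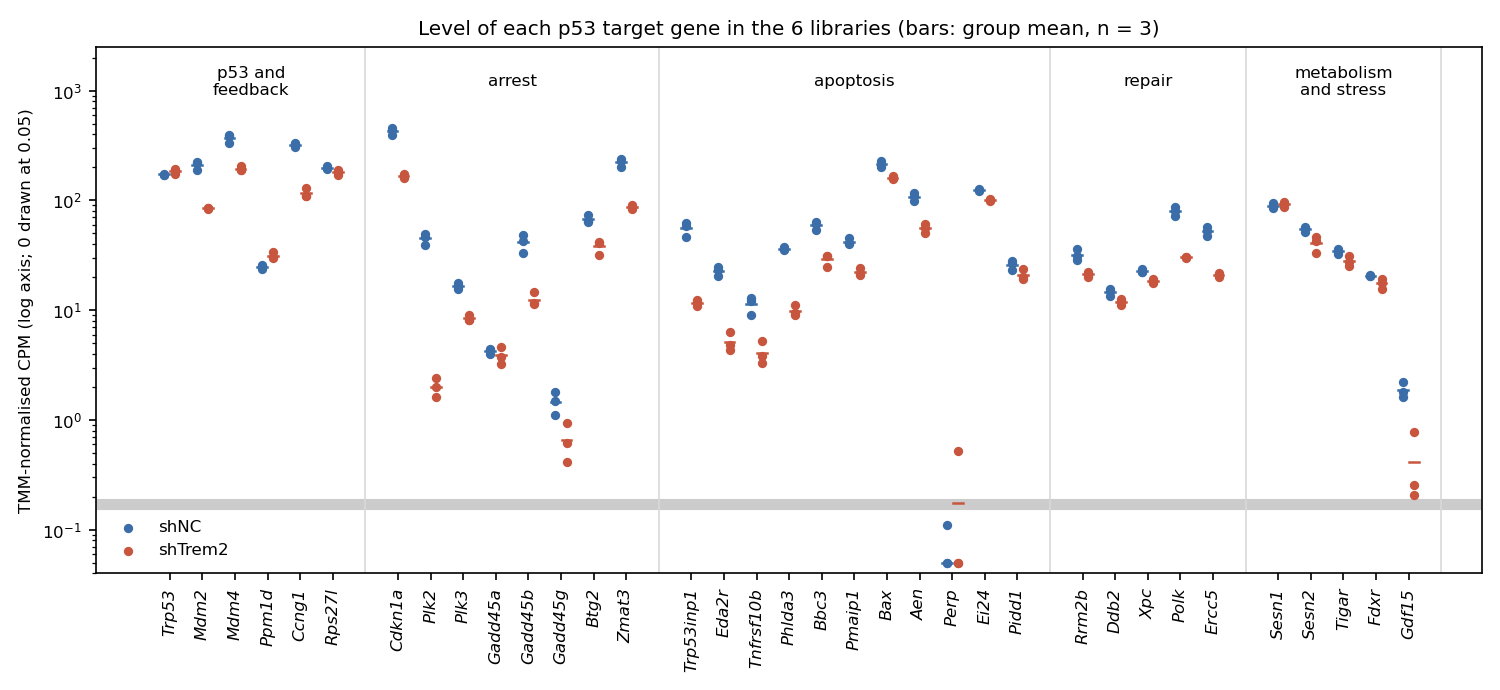
TMM-normalised CPM (log axis) of each of the 35 genes in the 6 libraries, grouped by role, with shNC in blue, shTrem2 in red and a bar at each group mean (n = 3). The grey band is the level of 3 counts, 0.154 to 0.186 CPM, and counts of 0 are drawn at 0.05. Mdm2, Cdkn1a and Plk2 show red points well below blue ones, while the points of Trp53 and Sesn1 lie together.

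The counts by role are read against the 12.4% of all tested genes that were lower DEGs. Of 8 tested arrest genes, 7 were DEGs (median log2 fold change -1.25), of 10 tested apoptosis genes 7 (-0.998), of 6 feedback genes 3 (-0.54), of 5 repair genes 2 (-0.58) and of 5 genes of metabolism and stress signalling 1 (-0.30). Of the 34 tested genes, 15 were lower DEGs at more than 2-fold, where 849 of all 13528 tested genes were. Counted among lower DEGs only, these were 15 of 20 beside 849 of 1671. Plk2, Trp53inp1, Eda2r and Gdf15 fell by more than 4-fold, a threshold that was not counted over all genes. The counts of 5 or 6 genes are small, and the difference between roles was not tested.

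**Figure D2:**
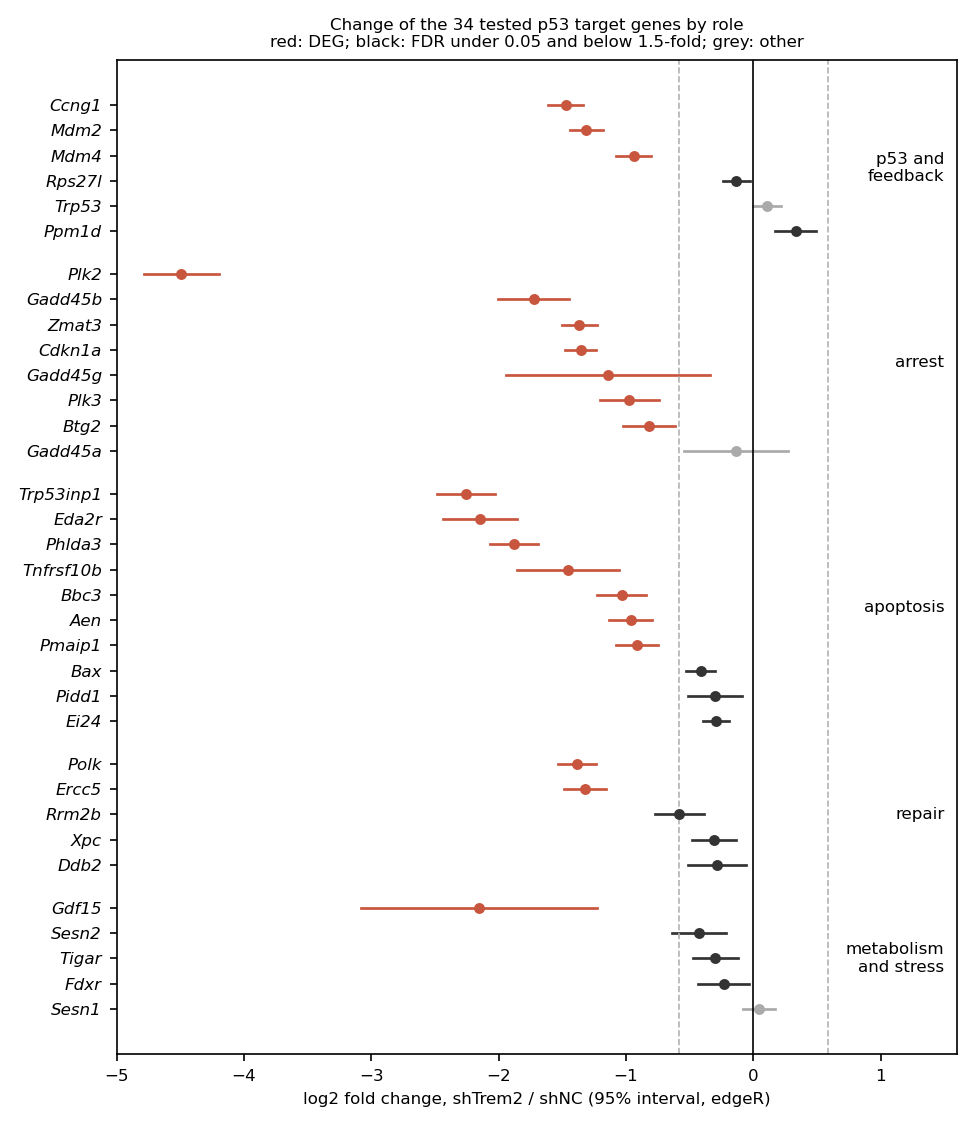
Log2 fold change of shTrem2 over shNC (horizontal axis) with its 95% interval from edgeR for the 34 tested genes, ordered within each role. Dashed lines mark 1.5-fold in either direction. The 20 DEGs, in red, all lie left of 0, from Plk2 at -4.49 to Btg2 at -0.82, and Ppm1d, at 0.33, lies farthest to the right.

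Among p53 and the genes that feed back on it, the inhibitors Mdm2 and Mdm4 fell, and p53 mRNA did not pass the test. Trp53 (ENSMUSG00000059552) was at 174.2, 172.3 and 172.1 CPM in shNC and at 190.4, 173.8 and 194.4 CPM in shTrem2, and the groups overlapped. Its log2 fold change was 0.11 (SE 0.050, 95% interval 0.0006 to 0.21, edgeR adjusted p = 0.0797). Without shTrem2 replicate 2 the adjusted p was 0.0108 at a log2 fold change of 0.16, still below 1.5-fold, and over all alternatives it was between 0.0108 and 0.860. A change in Trp53 mRNA as large as that of the DEGs is outside this interval. Mdm2 (ENSMUSG00000020184), the ubiquitin ligase that degrades p53 and is itself a p53 target, was at 222.5, 219.6 and 190.0 CPM in shNC and at 86.1, 83.8 and 84.9 CPM in shTrem2. Its log2 fold change was -1.31 (SE 0.060, edgeR adjusted p = 1.25e-09), a 2.48-fold fall. Mdm4 (ENSMUSG00000054387), the related protein that blocks p53's activation domain, was at 396.7, 388.4 and 334.1 CPM in shNC and at 187.8, 205.9 and 189.4 CPM in shTrem2. It fell by 0.94 on the log2 scale (SE 0.064, edgeR adjusted p = 4.22e-08). Every shTrem2 library lay below every shNC library for both inhibitors.

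Ccng1 (ENSMUSG00000020326), which encodes cyclin G1, a partner of a phosphatase that acts on Mdm2, was at 325.0, 335.0 and 307.3 CPM in shNC and at 110.3, 108.7 and 129.3 CPM in shTrem2. Its log2 fold change, -1.47 (SE 0.064, edgeR adjusted p = 7.94e-10), was the largest of the feedback genes. Ppm1d (Wip1), a phosphatase that switches off p53 and the kinases above it, was the 1 gene that was higher with an adjusted p under 0.05. Its level was 25.3, 23.8 and 25.7 CPM in shNC and 33.6, 29.8 and 30.7 CPM in shTrem2, a log2 fold change of 0.33 (SE 0.073, edgeR adjusted p = 0.00156) and 1.26-fold, below the criterion for a DEG. Rps27l, a ribosomal-like protein that binds Mdm2, had a log2 fold change of -0.13 (edgeR adjusted p = 0.0301), with 194.0 to 204.3 CPM in shNC and 171.0 to 188.1 CPM in shTrem2. Its adjusted p was 0.0556 without shNC replicate 2, 0.0931 without shNC replicate 3 and 0.181 without shTrem2 replicate 1. Reads that it shares with its close paralog Rps27 may have been divided in counting. Rps27l and Cdkn1a both have a 20-base match with 1 mismatch in the sequences above, and their log2 fold changes were -0.13 and -1.36.

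The genes of cell-cycle arrest held the largest fall. Cdkn1a (ENSMUSG00000023067), the inhibitor of cyclin-dependent kinases through which p53 stops the cycle, was at 454.2, 435.8 and 397.5 CPM in shNC and at 167.9, 159.0 and 175.8 CPM in shTrem2. It fell 2.56-fold (log2 fold change -1.36, SE 0.057, edgeR adjusted p = 6.30e-10). Plk2 (ENSMUSG00000021701), a polo-like kinase of centriole duplication and the stress response, was at 46.9, 49.5 and 39.6 CPM in shNC and at 1.98, 1.62 and 2.42 CPM in shTrem2. All 3 shTrem2 values were above the floor of 3 counts. The log2 fold change was -4.49 (SE 0.136, edgeR adjusted p = 6.85e-11), a 22.5-fold fall, and it was -3.43, or 10.8-fold, on the scale of log2(FPKM + 1), which understates changes of low genes. Its relative Plk3 (ENSMUSG00000028680) was at 17.6, 16.6 and 15.5 CPM in shNC and at 9.02, 8.09 and 8.18 CPM in shTrem2, a fall of 0.97 on the log2 scale (SE 0.107). No p53 motif was found in the promoter windows of Plk2 and Plk3.

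The 3 Gadd45 genes, small stress sensors that bind cell-cycle and repair proteins, held 2 DEGs, both lower. Gadd45b (ENSMUSG00000015312) was at 48.2, 42.7 and 33.4 CPM in shNC and at 11.7, 14.6 and 11.3 CPM in shTrem2, a log2 fold change of -1.72 (SE 0.130, edgeR adjusted p = 1.16e-07). Gadd45a, the member of the family best known as a direct p53 target, was at 4.47, 4.38 and 3.96 CPM in shNC and at 3.75, 4.65 and 3.24 CPM in shTrem2. Its log2 fold change was -0.14 (95% interval -0.54 to 0.27, edgeR adjusted p = 0.560), and the groups overlapped. Gadd45g (ENSMUSG00000021453) was near the detection limit, with 1.80, 1.496 and 1.10 CPM in shNC and 0.417, 0.939 and 0.618 CPM in shTrem2. Its log2 fold change was -1.14 (SE 0.373, edgeR adjusted p = 0.0179), and the call was lost with DESeq2 (adjusted p = 0.0580) and when shNC replicate 1 (0.0812), shNC replicate 2 (0.0525) or shTrem2 replicate 1 (0.0862) was left out. Over all alternatives its adjusted p was between 0.0118 and 0.0862.

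Btg2 and Zmat3 complete the arrest genes. Btg2 (ENSMUSG00000020423), an antiproliferative cofactor of mRNA deadenylation, was at 64.6, 73.3 and 63.5 CPM in shNC and at 41.1, 41.7 and 31.5 CPM in shTrem2 (log2 fold change -0.82, SE 0.094). Zmat3 (ENSMUSG00000027663), an RNA-binding zinc finger protein, was at 237.1, 230.7 and 200.5 CPM in shNC and at 84.5, 83.7 and 91.1 CPM in shTrem2 (-1.37, SE 0.064). Both had lower values in all 3 shTrem2 libraries than in any shNC library.

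Of the 10 tested apoptosis genes, Trp53inp1, Eda2r, Phlda3 and Tnfrsf10b had the largest falls. Trp53inp1 (ENSMUSG00000028211), a nuclear protein that promotes p53 activity and autophagy, was at 58.9, 62.4 and 46.9 CPM in shNC and at 11.9, 12.3 and 10.9 CPM in shTrem2 (log2 fold change -2.26, SE 0.106). Eda2r (ENSMUSG00000034457), a receptor of the tumour necrosis factor family for ectodysplasin A2, was at 23.2, 24.9 and 20.7 CPM in shNC and at 4.85, 4.38 and 6.28 CPM in shTrem2 (-2.15, SE 0.135). Tnfrsf10b (ENSMUSG00000022074), the mouse TRAIL death receptor, was at 12.9, 12.1 and 8.96 CPM in shNC and at 3.86, 3.29 and 5.20 CPM in shTrem2 (-1.45, SE 0.187). The groups did not overlap for any of these genes, and shNC replicate 3 was the lowest shNC library in each. Phlda3 (ENSMUSG00000041801), a pleckstrin homology protein that competes with AKT for membrane lipids, was at 35.8, 35.6 and 37.7 CPM in shNC and at 9.07, 9.50 and 11.1 CPM in shTrem2 (-1.88, SE 0.089). These 4 falls had edgeR adjusted p-values between 1.42e-09 and 1.67e-05.

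The BH3-only genes Bbc3 and Pmaip1 and the nuclease gene Aen fell by between 1.88-fold and 2.05-fold. Bbc3 (ENSMUSG00000002083), which encodes Puma, was at 61.5, 63.3 and 54.0 CPM in shNC and at 31.5, 31.1 and 24.8 CPM in shTrem2 (log2 fold change -1.03, SE 0.090). Pmaip1 (ENSMUSG00000024521), which encodes Noxa, was at 45.3, 40.3 and 40.9 CPM in shNC and at 21.9, 24.2 and 21.1 CPM in shTrem2 (-0.91, SE 0.076). Aen (ENSMUSG00000030609), a nuclease that acts in apoptosis, was at 117.3, 109.9 and 98.5 CPM in shNC and at 55.7, 50.1 and 61.3 CPM in shTrem2 (-0.96, SE 0.078). These 3 genes had edgeR adjusted p-values between 2.30e-07 and 4.65e-07, and the intervals of their fold changes overlapped.

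The other tested apoptosis genes were lower by less than 1.5-fold. Bax, the pore-forming effector of mitochondrial apoptosis, was at 202.7, 210.2 and 229.1 CPM in shNC and at 158.7, 156.8 and 166.5 CPM in shTrem2, a log2 fold change of -0.41 (SE 0.052, edgeR adjusted p = 1.50e-05) and 1.33-fold, below the criterion for a DEG. Ei24, a membrane protein of the endoplasmic reticulum, had a log2 fold change of -0.29 (edgeR adjusted p = 1.15e-04), with no overlap between groups. Pidd1, the scaffold that activates caspase-2, had one of -0.30 (edgeR adjusted p = 0.0171), but shTrem2 replicate 3, at 23.7 CPM, lay above shNC replicate 3, at 23.1 CPM. The adjusted p of Pidd1 was between 0.0611 and 0.0728 when shNC replicate 1 or 2 or shTrem2 replicate 1 or 2 was left out. Perp, a desmosome protein of epithelia, was not tested, with 2 counts in the shNC libraries together and 10 in those of shTrem2, all in replicate 2.

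Of the repair genes, the translesion and excision enzymes Polk and Ercc5 were DEGs, and the damage-recognition genes were not. Polk (ENSMUSG00000021668), a DNA polymerase that copies past lesions, was at 86.6, 79.5 and 72.3 CPM in shNC and at 30.4, 30.1 and 30.8 CPM in shTrem2 (log2 fold change -1.38, SE 0.070, edgeR adjusted p = 3.02e-09). Ercc5 (ENSMUSG00000026048), the nuclease XPG of nucleotide excision repair, was at 56.9, 53.03 and 47.0 CPM in shNC and at 21.6, 20.98 and 20.1 CPM in shTrem2 (-1.32, SE 0.078, edgeR adjusted p = 1.20e-08). The shTrem2 libraries of both genes varied little and lay far below the lowest shNC library.

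Rrm2b (ENSMUSG00000022292), a ribonucleotide reductase subunit that supplies nucleotides for repair, lay at the edge of the criterion. It was at 35.9, 30.9 and 28.6 CPM in shNC and at 20.3, 21.3 and 22.1 CPM in shTrem2, a log2 fold change of -0.58 (SE 0.088, edgeR adjusted p = 7.74e-05) and 1.496-fold. It became a DEG in 8 of 18 alternative fits at the same threshold, among them those without shNC replicate 2 (-0.61), shNC replicate 3 (-0.65) or shTrem2 replicate 3 (-0.62). Ddb2 (ENSMUSG00000002109), which recognises ultraviolet lesions, was at 14.9, 13.4 and 15.6 CPM in shNC and at 11.2, 12.2 and 12.6 CPM in shTrem2, with -0.29 (SE 0.106, edgeR adjusted p = 0.0316). The adjusted p of Ddb2 was between 0.0716 and 0.117 without shNC replicate 1, shNC replicate 3 or shTrem2 replicate 1. Xpc, the sensor of helix distortion, had a log2 fold change of -0.31 (edgeR adjusted p = 0.00508), with 22.2 to 23.9 CPM in shNC and 17.9 to 19.3 CPM in shTrem2.

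Genes of metabolism and stress signalling had the smallest median change and held 1 DEG, Gdf15. Gdf15 (ENSMUSG00000038508), a secreted stress cytokine, was at 1.80, 1.61 and 2.20 CPM in shNC and at 0.209, 0.783 and 0.257 CPM in shTrem2 (log2 fold change -2.15, SE 0.430, edgeR adjusted p = 7.43e-04). Its shTrem2 values were close to the floor, and the fold moved with shTrem2 replicate 2, without which the log2 fold change was -2.97. Of the sestrins, which restrain mTORC1, Sesn2 passed the test and Sesn1 did not. Sesn2 was at 51.8 to 56.9 CPM in shNC and at 33.0 to 46.7 CPM in shTrem2 (log2 fold change -0.43, edgeR adjusted p = 0.00223). Sesn1 was at 90.5, 94.0 and 84.5 CPM in shNC and at 92.6, 87.2 and 97 CPM in shTrem2, with 0.04 (95% interval -0.08 to 0.17, edgeR adjusted p = 0.563). Tigar, a regulator of glycolysis, had a log2 fold change of -0.30 (edgeR adjusted p = 0.00639), and Fdxr, the mitochondrial ferredoxin reductase, one of -0.23 (edgeR adjusted p = 0.0470), both below 1.5-fold and without overlap. With limma-trend on the FPKM values, Tigar had a log2 fold change of -0.17 to -0.18 and an adjusted p between 0.331 and 0.491, and the groups overlapped in FPKM. The adjusted p of Fdxr rose to 0.143 without shTrem2 replicate 3, and it was also over 0.05 without any 1 of the shNC libraries or without shTrem2 replicate 1.

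Levels of different genes can be compared per length with the FPKM values. In shNC, 5 of the genes were over 100 FPKM, and 12 were under 10 FPKM. The mean level of Cdkn1a was 312 FPKM in shNC and 113 FPKM in shTrem2, and that of Bax was 370 and 281 FPKM. Ccng1 was at 101 and 35.7 FPKM and Trp53 at 117 and 123 FPKM. Rps27l had the highest value, 1135 FPKM in shNC and 999 FPKM in shTrem2, on a short transcript for which the length correction is large. Plk2 went from 19.4 FPKM, a level near those of Pmaip1 (18.5 FPKM) and Sesn2 (17.5 FPKM), to 0.893 FPKM.

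The count table has 1 row per transcript, and 10 of the genes had more than 1 row with at least 10% of the counts of the gene and at least 1 CPM, while 24 had 1 such row. The rows carry symbols only, so the transcripts are not named here. Of Sesn1, whose sum did not pass the test, the rows went in opposite directions. Its row with 56.1% of the counts was at 44.3, 46.9 and 45.9 CPM in shNC and at 55.7, 51.3 and 62.3 CPM in shTrem2 (log2 ratio of means 0.30), and the other row was at 46.2, 47.1 and 38.6 CPM in shNC and at 36.9, 35.9 and 34.7 CPM in shTrem2 (-0.29). The groups overlapped in neither row. With its highest row alone, Sesn1 had a log2 fold change of 0.29 (edgeR adjusted p = 0.0151). In Bax, the row with the most counts had a log2 ratio of -0.18, and a second row fell from 60.9, 58.6 and 58.8 CPM to 24.3, 23.4 and 30.9 CPM (-1.18), so that its share of Bax counts was 27.8% in shNC and 16.3% in shTrem2. Only the highest row of each gene was tested, in a fit of those rows over all genes, and the log2 ratios of the other rows are given without a test.

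Row values are estimates of how reads divide between transcripts, and in Trp53 they swung within a group. The row with 49.2% of its counts was at 19.2, 117 and 115 CPM in shNC and at 117, 113 and 49.1 CPM in shTrem2. The second row was at 125, 24.2 and 30.8 CPM in shNC and at 45.0, 38.2 and 117 CPM in shTrem2, so shNC replicate 1 and shTrem2 replicate 3 stood opposite to the others while the sum of the gene stayed between 172.1 and 194.4 CPM. In Ddb2, the log2 ratios of the 4 rows were -0.72, -1.13, 0.50 and 0.73, and with its highest row alone Ddb2 was a DEG (-0.73, edgeR adjusted p = 0.0140). In Ei24, the highest row, with 38% of the counts, had a log2 ratio of -0.06 and overlapping groups, and another row had the same values. A further row was at 30.7, 23.0 and 17.3 CPM in shNC and at 5.25, 0.913 and 18.8 CPM in shTrem2 (-1.51). With its highest row alone, Ei24 had a log2 fold change of -0.08 (edgeR adjusted p = 0.501). The values per gene above are sums over rows and do not depend on this division. Both Ei24 rows with the same values enter its sum, and whether they are 1 transcript listed again was not tested.

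**Figure D3:**
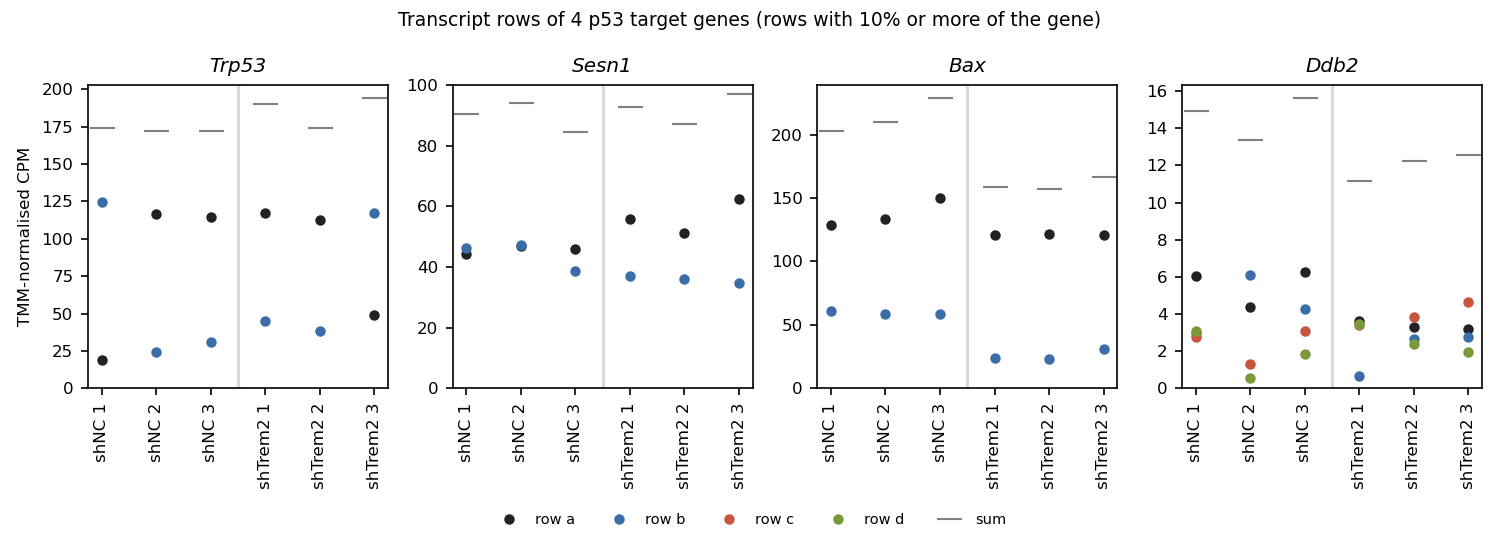
TMM-normalised CPM of the transcript rows of Trp53, Sesn1, Bax and Ddb2 that held at least 10% of the counts of the gene, with 1 point per row and library, and a grey dash at the sum over all rows. The Trp53 rows trade places in shNC 1 and shTrem2 3 under a steady sum, and the Sesn1 rows move apart in shTrem2.

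Exons of 8 of the 35 genes overlap another annotated gene in GENCODE M21 (GRCm38). The neighbour is on the opposite strand for Cdkn1a, Plk3, Gadd45a, Ei24, Rrm2b, Ddb2 and Tigar and on the same strand for Bax. The libraries were stranded and the alignment used read orientation, but the sources used here do not say how the counting used strand.

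For genes that act on p53 from above, the share of DEGs was close to that of all tested genes. Of 19 listed kinases, acetyltransferases, ubiquitin enzymes and p53 relatives, 16 were tested and 3 (18.8%) were DEGs, where 21.8% of all tested genes were, with a median log2 fold change of 0.11. Chek1, the checkpoint kinase of the replication stress response, rose from 27.4 ± 2.37 to 60.4 ± 5.90 CPM (SD, n = 3 each), a log2 fold change of 1.14 (SE 0.083, edgeR adjusted p = 8.24e-08). The deacetylase Sirt1 rose from 14.3 ± 1.44 to 24.1 ± 1.547 CPM (0.75). Ppp1r13l (iASPP), an inhibitor of p53, fell from 27.2 ± 2.60 to 12.6 ± 0.813 CPM (-1.11). Cdkn2a, whose Arf product blocks Mdm2, had no counts in any library, and neither had Trp63.

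Of 25 further genes that p53 is known to induce, 21 were tested, 7 were DEGs and all 7 were lower, where 12.4% of all tested genes were lower DEGs. Their median log2 fold change was -0.38. The receptor tyrosine kinase Epha2 fell from 40.8 ± 7.18 to 2.37 ± 0.545 CPM (-4.10) and the death receptor Fas from 9.29 ± 0.661 to 1.16 ± 0.102 CPM (-2.99; SD, n = 3 each). The ceramidase Acer2, at 0.766 ± 0.0930 and 0.277 ± 0.217 CPM, was near the floor (-1.44, edgeR adjusted p = 0.0270).

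The 20 listed genes that p53 lowers through p21 and DREAM went the other way. All 20 were tested, and all were higher with an adjusted p under 0.05 from edgeR and without overlap between groups. Among all tested genes, 28.8% were higher with an adjusted p under 0.05 and 32.1% were higher without overlap. Of the 20, 13 were DEGs, where 9.46% of all tested genes were higher DEGs. The median log2 fold change of the 20 was 0.75. The replication helicase subunit Mcm5 rose from 122 ± 5.50 to 272 ± 19.81 CPM (1.16), the mitotic kinase Plk1 from 47.2 ± 3.95 to 93.0 ± 1.57 CPM (0.98), the mitotic cyclin Ccnb1 from 92.3 ± 10.5 to 173 ± 4.34 CPM (0.90) and Birc5 (survivin) from 45.9 ± 1.85 to 84.5 ± 4.30 CPM (0.88; SD, n = 3 each). That cell-cycle genes were higher in these libraries was known when this list was chosen.

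**Figure D4:**
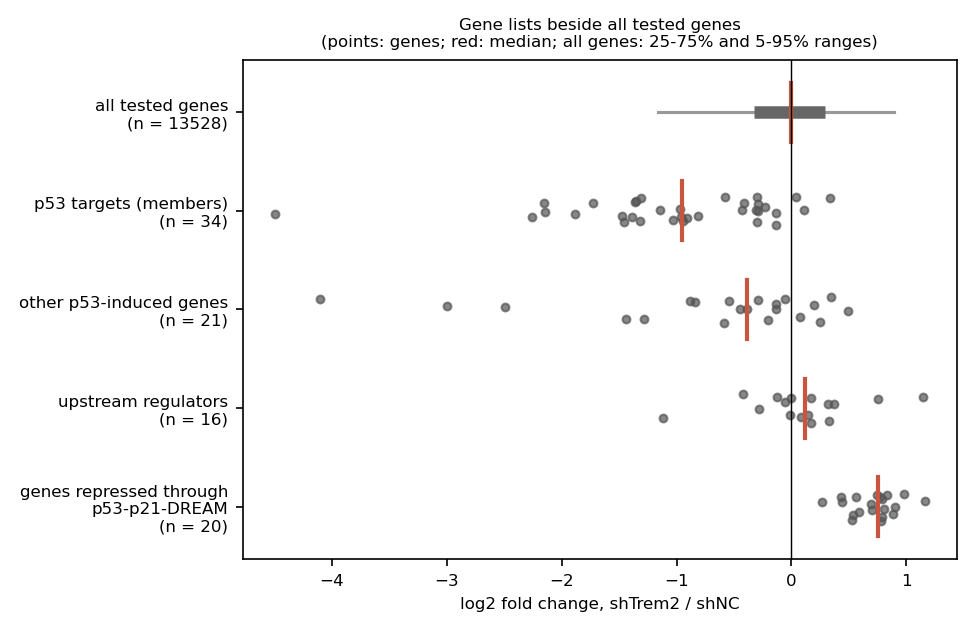
Log2 fold change of shTrem2 over shNC for the tested p53 targets (n = 34), other p53-induced genes (n = 21), upstream regulators (n = 16) and genes repressed through p53, p21 and DREAM (n = 20), with 1 point per gene and a red line at the median. For all 13528 tested genes the thick bar spans the middle 50% and the thin line the 5th to 95th percentile. The medians are -0.95, -0.38, 0.11 and 0.75, beside 0.00 for all genes.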

How the data were processed

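Estimated counts per transcript and FPKM values per gene were deposited by the authors for 6 polyA-selected, stranded libraries. Per the study's methods and processing notes, reads were trimmed with fastp, aligned with HISAT2 and assembled with StringTie on GRCm39. The counting tool is not given in the sources used here. Rows of 1 symbol were added up and the sums rounded to integers, which treats 311 symbols with several identifiers as 1 gene each. Rows without a symbol, between 0.908% and 1.12% of the counts, were left out. All 6 libraries entered edgeR 4.0.16 (R 4.3.3) with TMM, filterByExpr, glmQLFit and glmQLFTest, without covariates, and Benjamini-Hochberg adjustment over 13528 genes. DEGs had an adjusted p under 0.05 and more than 1.5-fold change, as in the study. The test was checked on simulated counts. Alternatives were DESeq2 1.42.0, other normalizations, filters and thresholds, limma 3.58.1 (voom, and limma-trend on the deposited FPKM values as log2(FPKM + 1) or log2(FPKM + 0.1)), the highest row of each gene, a replicate block, and each library left out. The authors' group means of FPKM were not used. Same-numbered libraries of the 2 groups showed no shared deviation, with correlations between -0.0053 and 0.0079. The labels do not say whether they were handled together. No libraries agreed within sampling noise. Promoter sequences are RefSeq's (GRCm38.p6).

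The genes, their roles and the lists were chosen with earlier results of these data known. All 35 genes are named, with values per library for DEGs, Trp53, Mdm2, Cdkn1a and genes whose call depended on a setting, and up to 4 DEGs with the largest change from each further list. A result that this rule would name is not reported here.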

Additional observations from a re-analysis of the deposited data

How the results depend on the processing

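The number of p53 targets called as DEGs was between 19 and 21 in 18 alternative fits at the same threshold, and in none of them was a target a DEG that was higher. It was 19 at an adjusted p under 0.01, 19 with glmTreat against 1.5-fold, 15 at more than 2-fold and 31 without a fold threshold. Over all genes the count was 1339 at more than 2-fold, 7763 without a fold threshold and 1515 with glmTreat, against 2951, as the threshold itself is another. With each library left out in turn, it was between 19 and 21 among the targets and between 2789 and 3105 over all genes. With the replicate number as a block, 20 targets and 2911 genes were DEGs, and the labels do not say that the numbers pair the samples. Of the 20 targets, 19 were called in every alternative fit at the same threshold in which they were tested, and Gadd45g in 11 of 17. Sesn1, which was not called, had a log2 fold change of -0.004 without shTrem2 replicate 3, and over the fits that left out a library it was between -0.004 and 0.0836. Eda2r was at -1.50 and Gdf15 at -0.99 on the scale of log2(FPKM + 1), and at -1.94 and -2.09 with the smaller pseudocount of 0.1. Among targets below 1.5-fold, Tigar, Pidd1 and Rrm2b had an adjusted p over 0.05 in all limma-trend fits on FPKM, from 0.0649 to 0.491. Scaling by library size only left 39% of all DEGs higher, where 43.4% were with TMM, and put the log2 fold change of the median gene at -0.0341, the farthest from 0 of the scalings tried. Depth limits Gdf15, with 4 and 5 counts in 2 of the shTrem2 libraries, Gadd45g, with a lowest count of 8, and Perp, with 0 counts in 4 libraries.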

Other observations

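The KEGG p53 signaling pathway, as given in the annotation that the authors deposited, holds 21 of the 35 targets. The 20 of them that were tested held 10 DEGs, all lower (median log2 fold change -0.75), and the 14 targets outside the pathway also held 10, all lower (median -1.15). The other genes of the pathway went both ways. Of 45 tested, 16 were DEGs, 7 higher and 9 lower, with a median of 0.00, where 21.8% of all tested genes were DEGs. The genes named next were chosen after their values were seen. Among the lower ones were Ccnd2, a cyclin that drives entry into the cycle (log2 fold change -2.32), the growth factor Igf1 (-2.05), Aifm2, a p53-induced oxidoreductase also known as a suppressor of ferroptosis (-1.46), the survival gene Bcl2l1 (-1.03) and Cdk6 (-0.80). Among the higher ones were the replication cyclin Ccne2 (1.08), the ubiquitin ligase gene Siah1b (1.06) and the ribonucleotide reductase subunit Rrm2 (0.80), which is the replicative counterpart of Rrm2b (-0.58). All of these values are from the same edgeR fit, with adjusted p-values between 7.34e-09 and 1.75e-05, and 7.74e-05 for Rrm2b.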
